A study of Mus musculus with 57 samples.

Results

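GATA6 is the transcription factor that specifies primitive endoderm (PrE), the extraembryonic layer that separates from the pluripotent epiblast (Epi) in the blastocyst. It recognizes the short word GATA, with A or T before it and A or G after it. It can engage sites covered by nucleosomes. In embryonic stem (ES) cells it meets a genome occupied by NANOG and SOX2, which maintain the Epi state. The comparison examined here is GATA6 binding after 4 h against 8 h of induction, measured by CUT&RUN, in which an antibody guides a nuclease to cut out the DNA under the bound protein. Its members are 36731 genomic regions with a GATA6 peak in both replicate lists of at least one of the time points, out of 71248 regions formed by merging the peaks of the 4 lists. The 4 lists are part of 10 GATA6 lists and of 30 samples with a peak list, in a series of 57 samples.

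All 4 libraries came from the same mouse KH2 ES cell line, which carries 1 copy of a doxycycline-responsive transgene for FLAG-tagged GATA6 and DsRed2, with 100000 cells per replicate. Cells were maintained in 2i medium with LIF and then moved to serum medium with LIF and doxycycline at 1 µg/mL, so that at 4 h and at 8 h induction was still running. The 24 h and 48 h lists used for comparison differ in this. By the study's methods, those cells had by then been switched to serum medium without doxycycline. The line is a single engineered line, and the antibody sees the transgene product and the endogenous protein alike. The comparison addresses how GATA6 occupancy develops while it is being induced. One disagreement precedes every result: the lists that carry 4 h in their own name are attached to sample records titled 8 h, and those named 8 h to records titled 48 h. The time in the list name was used throughout. The study states that replicates were performed independently, while the labels do not say whether they were separate cultures.

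The 4 h lists held 47892 and 54279 peaks on nuclear chromosomes (replicates 1 and 2) and the 8 h lists 28674 and 30232. The background coverage, recovered from the fold and p-value of each peak, was 1.27 and 1.10 fragments per base at 4 h and 1.29 and 1.2 at 8 h, so the time points overlapped. The lowest pileup accepted at that background was 6 fragments at 4 h and 7 at 8 h. Before induction the lists held 84 and 880 GATA6 peaks, from libraries with a background of only 0.287 and 0.315 fragments per base, and overlapped 0.0267% and 0.176% of the kept regions defined next.

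A region was called bound at a time point when both lists of that time had a peak in it. It was kept when bound at both times, lost when bound at 4 h with no peak in either 8 h list, and gained when bound at 8 h with no peak in either 4 h list. Regions with a peak in 1 of the 2 lists of the other time were called reduced (bound at 4 h) or partly new (bound at 8 h). A lost region is thus one where no 8 h peak passed the caller's threshold, not one shown to be free of GATA6.

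Windows of 201 bp centred on the summit of 6 regions are printed to show what these classes look like at the level of DNA. They are the strongest lost, kept and gained region near a gene and the kept regions with the largest fall and the largest rise. A second rising region was added after its values were seen, because it holds many GATA words. Capitals mark a GATA word on either strand, that is AGATAA or, with another last base, AGATAG, and the forms that begin with T, which are TGATAA and, with the other last base, TGATAG, and all sequences are the plus strand of GRCm38 (mm10). The lost window lies in an intron of Plch1 (chr3:63842601-63842801), the kept one in an intron of Cd59a (chr2:104098711-104098911) and the gained one upstream of Arntl (chr7:113162318-113162518). The falling window lies upstream of Noct (chr3:51216358-51216558) and the rising one in an intron of Mapkapk3 (chr9:107272507-107272707). The added window lies upstream of Rnf186 (chr4:138956804-138957004).
Plch1, lost: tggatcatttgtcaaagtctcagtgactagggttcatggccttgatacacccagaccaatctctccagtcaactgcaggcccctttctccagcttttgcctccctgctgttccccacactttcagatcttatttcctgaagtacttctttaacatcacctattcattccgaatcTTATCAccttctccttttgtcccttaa
Cd59a, kept: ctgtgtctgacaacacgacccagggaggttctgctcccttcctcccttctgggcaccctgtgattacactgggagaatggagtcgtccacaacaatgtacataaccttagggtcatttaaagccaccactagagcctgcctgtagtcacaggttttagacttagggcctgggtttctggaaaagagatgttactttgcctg
Arntl, gained: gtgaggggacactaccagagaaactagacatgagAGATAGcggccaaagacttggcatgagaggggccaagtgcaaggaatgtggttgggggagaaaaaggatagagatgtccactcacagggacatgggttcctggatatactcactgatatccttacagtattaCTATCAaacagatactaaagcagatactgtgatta
Noct, kept and falling: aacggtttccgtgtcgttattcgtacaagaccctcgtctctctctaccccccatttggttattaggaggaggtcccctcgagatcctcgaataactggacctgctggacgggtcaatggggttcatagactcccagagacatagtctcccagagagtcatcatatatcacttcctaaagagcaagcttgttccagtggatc
Mapkapk3, kept and rising: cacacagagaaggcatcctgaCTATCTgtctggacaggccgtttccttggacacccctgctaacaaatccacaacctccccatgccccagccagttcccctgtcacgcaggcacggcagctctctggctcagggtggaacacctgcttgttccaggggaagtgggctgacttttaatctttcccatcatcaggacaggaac
Rnf186, kept and rising: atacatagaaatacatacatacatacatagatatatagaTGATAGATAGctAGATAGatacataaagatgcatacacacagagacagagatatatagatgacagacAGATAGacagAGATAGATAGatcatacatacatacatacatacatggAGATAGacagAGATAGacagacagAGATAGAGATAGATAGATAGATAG
The Noct and Cd59a windows hold no GATA word, the Plch1 and Mapkapk3 windows 1, the Arntl window 2 and the Rnf186 window 13, where many of the words form tandem repeats.

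Fewer regions were called bound by GATA6 at 8 h than at 4 h. Of 34375 regions bound at 4 h, 9427 were lost (27.4%, 95% Wilson interval 27 to 27.9), 6230 were reduced (18.1%) and 18718 were kept (54.5%). Of 21074 regions bound at 8 h, the kept regions made up 88.8%, 1608 were partly new (7.63%) and only 748 were gained (3.55%). There were 12.6 lost regions for each gained one. With all lists cut by q-value to the 28674 peaks of the shortest, which fixes equal list lengths, 2911 regions were lost, 15758 kept and 2226 gained, or 1.31 lost for each gained. The excess of losses was thus much smaller at equal length, and whether the shorter 8 h lists reflect fewer sites or less sensitive libraries was not tested. Leaving out a 4 h list raised the lost regions to 25528 (replicate 1) or 20976 (replicate 2), since 1 list then defines the time, and leaving out an 8 h list raised the gained regions to 3194 (replicate 1) or 3096 (replicate 2). Intervals here and in what follows cover counting error only.

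**Figure D1:**
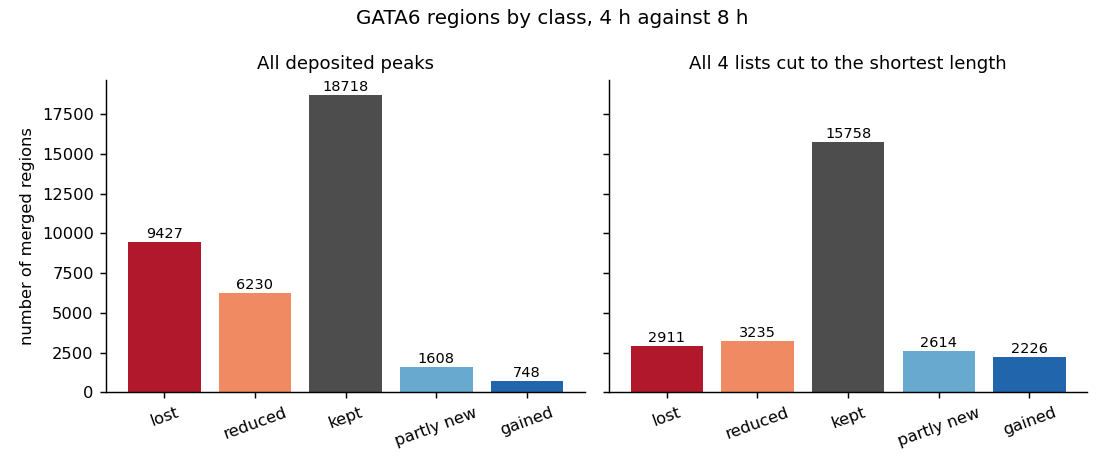
Number of merged GATA6 regions (y axis) in each class (x axis), with all deposited peaks on the left and with the 4 lists cut to equal length on the right. Lost regions outnumber gained ones 9427 to 748 on the left and 2911 to 2226 on the right, while kept regions are the largest class in both.

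Kept regions had the stronger GATA6 signal, in part by construction, because a kept region had to pass the caller's threshold in all 4 lists. Fold is the caller's summit enrichment over local background. Its median in kept regions was 8.67 and 10.5 in the 4 h lists and 7.06 and 7.73 in the 8 h lists. In lost regions it was 4.82 and 5.36 at 4 h, and in gained regions 4.73 and 5.00 at 8 h. Both the lost and the gained sets were therefore weak. Peaks of kept regions were also wider at 4 h, with a median of 677 and 689 bp against 468 and 501 bp at 8 h. Gained regions were the narrowest class, with a median merged width of 329 bp against 455 bp for lost and 822 bp for kept regions.

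**Figure D2:**
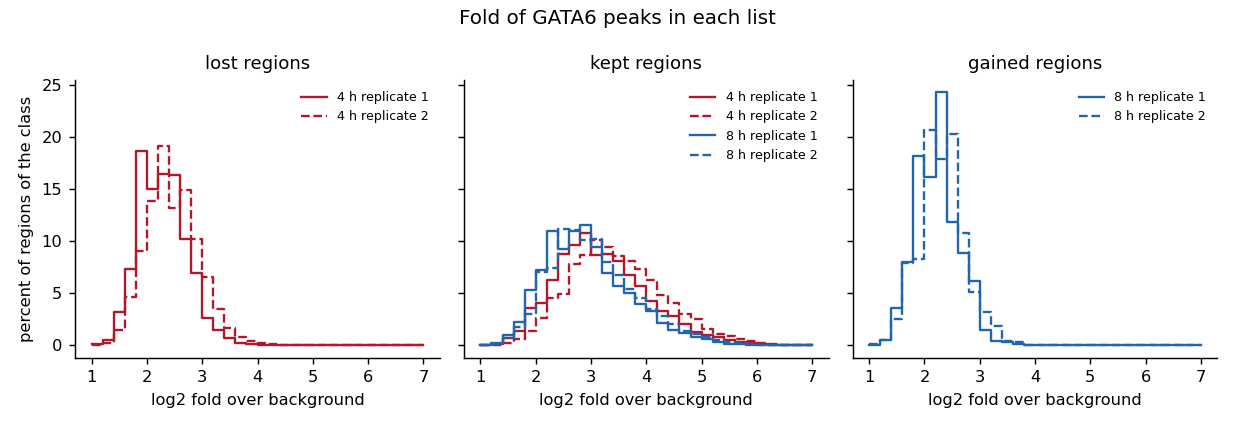
Percent of the regions of a class (y axis) by log2 fold over background (x axis), for lost, kept and gained regions, with 1 line per list. Lost and gained regions lie at low fold, and in kept regions both 8 h lines are shifted to lower fold than both 4 h lines.

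Loss followed 4 h strength closely. The definition of the classes favours this, because a region near the caller's threshold at 4 h needs only a small fall to be lost. When the 4 h regions were divided into 5 bins of equal number by their mean 4 h fold, 59.4% of the weakest bin (fold 2.24 to 4.90) were lost and 18.1% kept. The lost share was 43.0% in the next bin, 24.8% in the third, 9.22% in the fourth and 0.756% in the strongest (fold 12.0 to 140), where 97.1% were kept. Since lost and kept regions differ in fold, their main other properties were also compared within these bins.

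GATA words distinguished the classes. A word lay within 100 bp of the summit in 48.5% of lost (95% Wilson interval 47.5 to 49.5), 57.3% of reduced, 70.4% of kept (69.7 to 71.0), 77.6% of partly new and 81.3% of gained regions, compared with 56.0% of all 71248 merged regions. In windows of the same length 5 kb away the share was 33.3%, 32.4% and 32.8% for lost, kept and gained regions. The order held at like 4 h fold: lost regions had a word in 47.1% to 55.8% of cases across the 5 bins and kept regions in 68.0% to 72.5%, with kept above lost in every bin. With lists of equal length kept was above lost in all bins but 1, and the smallest of these bins held 9 lost regions. Seen from the other side, 37.2% of the 13064 4 h regions without a word were lost, 27.2% of those with 1, 18.7% of those with 2 and 8.88% of the 3966 with 3 or more. The median 4 h fold of these groups rose alongside, from 6.33 to 6.98, 7.54 and 8.28.

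Regions with 3 or more words made up 3.73% of lost, 16.8% of kept and 23.9% of gained regions, and within bins of 4 h fold 2.21% to 4.05% of lost against 15.8% to 17.5% of kept regions. Some of these words lay in tandem repeats. At least 3 copies of the letters GATA in a row, on either strand, occurred in 0.827% of lost, 5.08% of kept and 6.95% of gained regions. Without these regions the shares with 3 or more words were 2.95%, 12.4% and 18.2%, in the same order. The search for tandem copies was added after the data were seen.

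Other words went the opposite way. The AP-1 word TGANTCA (either strand, N any base), the recognition element of FOS and JUN dimers, lay in 17.2% of lost, 10.7% of kept and 5.48% of gained regions, against 11.2% of all merged regions and 6.27% of all windows 5 kb away. The word CAAGGTCA, bound by the nuclear receptors ESRRB and NR5A2, lay in 3.83%, 2.75% and 0.936%. The SOX word ACAATG lay in 15.4%, 14.5% and 12.0%. Within bins of 4 h fold, a comparison added after the data were seen, the AP-1 word lay in 13.5% to 32.7% of lost and 6.28% to 12.9% of kept regions and the SOX word in 13.6% to 21.3% and 12.5% to 15.7%, with lost above kept in each of the 5 bins. The ESRRB and NR5A2 word was more frequent in lost regions in 4 bins and less so in the strongest, with its 52 lost regions.

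Lost regions lay close to a promoter slightly more often than kept regions when all were pooled, whereas at like 4 h fold the order was the opposite in 4 of 5 bins. A protein-coding transcription start site (TSS) was within 5 kb of 21.5% of lost, 19.4% of kept and 13.6% of gained regions, and within 1 kb of 11.2%, 8.03% and 2.81%. Gained regions were thus the class least often at promoters. In the weakest bin of 4 h fold the share within 5 kb was 25.7% of lost and 21.6% of kept regions, but in the other 4 bins it was 20.9%, 16.3%, 12.0% and 9.62% of lost against 22.7%, 22.0%, 20.5% and 15.8% of kept regions. The pooled difference between lost and kept of 2.10 percentage points turned to -1.22 with the top 10000 peaks of every list and to -0.64 with lists of equal length. Median distances to the TSS were 25547 bp for lost, 24791.5 bp for kept and 27802 bp for gained regions, and 20.9%, 18.1% and 21.8% lay over 100 kb away.

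It was next examined which other factors occupied the lost and kept regions in the same cell system. An overlap of 1 bp was counted, and region width was not held equal. Kept regions were the widest class. Their 4 h peaks were also wider than those of lost regions in each bin of 4 h fold (median 954.5 against 649 bp in the strongest). NANOG and SOX2 lists of uninduced cells give the state before GATA6 arrived. By the study's methods, this is also the state before the change from 2i to serum medium. A NANOG 0 h peak lay in 16.0% and 22.4% of lost regions (NANOG replicates 1 and 2), in 14.6% and 19.8% of kept regions and in 0.401% and 0.668% of gained regions. For SOX2 at 0 h it was 35.4% and 33.4% of lost, 28.8% and 27.4% of kept and 2.27% and 1.34% of gained regions. Over all merged regions the shares were 9.12% and 12.9% for NANOG and 22.4% and 20.6% for SOX2. Gained regions were almost free of NANOG and SOX2 peaks before induction.

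At like 4 h fold, lost regions carried NANOG and SOX2 at 0 h more often than kept regions in every bin and for every list. From the weakest to the strongest bin, NANOG replicate 1 had a peak in 9.89%, 15.5%, 23.4%, 35.3% and 40.4% of lost regions and in 2.66%, 5.48%, 8.12%, 13.2% and 24.1% of kept regions. Averaged over bins, lost exceeded kept by 14.2 and 17.2 percentage points for NANOG and by 17.4 and 16.9 for SOX2. The pooled difference, in contrast, turned negative when either 4 h list was left out, while the mean over bins stayed positive (6.66 to 9.44 points for NANOG and 7.3 to 10.1 for SOX2). With lists of equal length NANOG replicate 1 was ahead in 4 of the 5 bins, the smallest of which then held 9 regions, and the other 3 lists in all 5. Averaging over bins was chosen after the data were seen.

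Combining both factors gave the same picture. Among 4 h regions with NANOG and SOX2 in both of their 0 h lists (3857 regions), 79.6%, 63.9%, 44.8%, 19.2% and 1.21% were lost from the weakest to the strongest bin. Among the 20988 regions with neither factor in any 0 h list the shares were 54.4%, 37.1%, 20.3%, 6.27% and 0.423%. Pooled over bins, 28.6% against 24.8% were lost, and the regions with NANOG and SOX2 had the higher median 4 h fold (9.29 against 6.67). Of the regions with SOX2 alone (2774), 32.1% were lost over all bins (median 4 h fold 6.31), more than in either other group. By bin they lay between both, at 65.1%, 45.8%, 22.4%, 6.64% and 0.771%.

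By 8 h the order for SOX2 was turned. A SOX2 8 h peak lay in 11.8% and 9.65% of lost and in 42.6% and 39.3% of kept regions, and kept regions were ahead in each bin of 4 h fold for both lists. In the weakest bin the shares for replicate 1 were 8.74% of lost and 14.1% of kept, and in the fourth bin 23.7% and 37.7%. For NANOG at 4 h the pooled shares were 15.4% and 14.9% of lost against 38.7% and 37.9% of kept regions, but within bins lost regions were ahead in all 5 for both lists, for example 43.1% against 33.1% in the fourth bin for replicate 1. NANOG 8 h peaks were rarer, in 1.51% and 1.01% of lost and 7.47% and 5.43% of kept regions. Within bins the order varied. In the fourth bin lost regions were ahead (5.68% and 3.15% against 3.91% and 2.73%). In the strongest bin kept regions were ahead (16.1% and 12.0% against 3.85% and 1.92%).

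**Figure D3:**
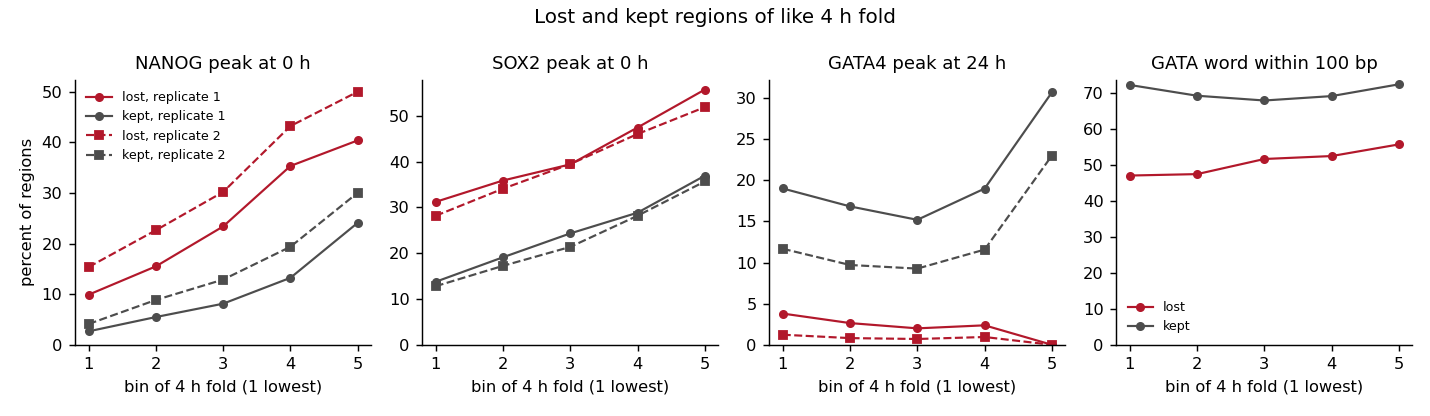
Percent of lost (red) and kept (grey) regions (y axis) with a NANOG or SOX2 peak at 0 h, a GATA4 peak at 24 h or a GATA word within 100 bp of the summit, by bin of 4 h fold from 1, the weakest, to 5 (x axis). Circles and squares are replicates 1 and 2 of the other factor. NANOG and SOX2 lie higher in lost regions in every bin, GATA4 and the GATA word higher in kept regions. The fifth bin holds 52 lost regions.

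GATA4 and SOX17 are PrE factors expressed downstream of GATA6, and their lists come from 24 h. GATA4 peaks lay in 2.99% and 0.976% of lost, 22.2% and 15.0% of kept and 11.5% and 6.82% of gained regions. SOX17 peaks lay in 19.2% and 26.7% of lost, 39.8% and 48.5% of kept and 15.9% and 21.9% of gained regions. Over all merged regions the shares were 8.22% and 4.90% for GATA4 and 21.1% and 27.9% for SOX17. Kept regions thus carried later PrE factors more often than either other class, and did so over lost regions in each of the 5 bins (by 18 and 12.3 percentage points on average for GATA4, and by 18.8 and 19.7 for SOX17). Whether this holds at like region width was not tested.

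GATA6 itself was also read at the neighbouring times. A 2 h peak lay in 70.3% and 57.7% of all merged regions. At 2 h, 91.2% and 78.3% of lost and 95.1% and 89.7% of kept regions already had a GATA6 peak. Of gained regions it was 27% and 14.2%, and 67.8% of them had none in either 2 h list. In the lists named 48 h, 1.24% and 2.07% of lost, 16.7% and 20.6% of kept and 11.8% and 15.9% of gained regions had a peak. Of all merged regions it was 5.73% and 7.59%. The 48 h lists held only 5930 and 9765 peaks, which bounds these overlaps. Although gained regions were as weak at 8 h as lost regions were at 4 h, they overlapped each 48 h list more often than lost regions did and less often than kept regions did.

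**Figure D4:**
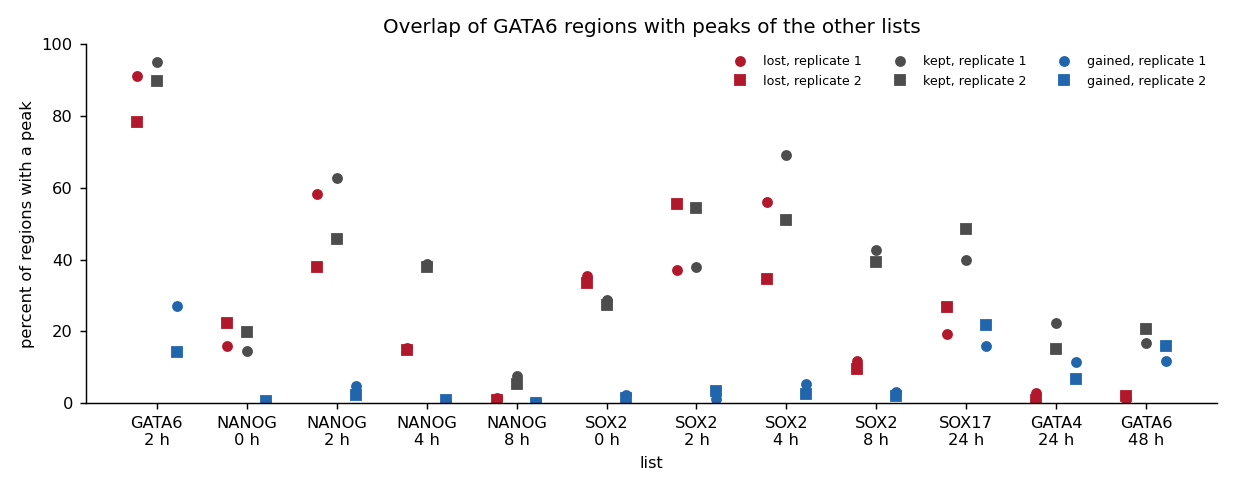
Percent of lost, kept and gained regions (y axis) that overlap a peak of each other list (x axis, factor and time), with 1 point per replicate of that list. Gained regions are nearly free of NANOG and SOX2 at 0 h (0.401% to 2.27%), lost regions have few GATA4 24 h or GATA6 48 h peaks (0.976% to 2.99%), and kept regions have both kinds.

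Within the 18718 kept regions GATA6 fold was lower at 8 h in most. The median log2 difference, 8 h minus 4 h, was -0.35, and 75.2% of regions had a lower mean log2 fold at 8 h. In a limma fit across all kept regions with Benjamini-Hochberg adjustment, 2270 regions fell (12.1% of those tested) and 148 rose (0.791%). In this fit the variance of every region was taken from the trend across regions, since limma estimated infinite prior degrees of freedom. Each SE and p given here, other than those after centring, therefore reflects the typical spread of regions of like fold, not the replicate spread of the region itself. Both 4 h values lay above both 8 h values in 47.3% of kept regions, and both 8 h values above both 4 h values in 9.17%. Relative to the median shift, that is after setting the medians of the 4 lists equal, 547 regions were lower (2.92%) and 578 higher (3.09%), and falls no longer outnumbered rises. All 148 rising regions also rose after this centring. The counts depended on single libraries: without an 8 h list 224 (replicate 1) or 589 (replicate 2) regions fell and 4 rose in either case, and without 4 h replicate 2 the falls numbered 804. For a single region 2 lists against 2 allow no exact permutation p below 0.333. The scatter between replicates was of like size at both times, with an SD of the replicate difference of 0.46 log2 units at 4 h and 0.44 at 8 h.

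Falling and rising kept regions differed in what they held before induction. A NANOG 0 h peak lay in 39.1% and 47.3% of the 2270 falling regions. Of the 148 rising regions it was in 1 (0.676%) for replicate 1 and in none for replicate 2 (95% Wilson interval up to 2.53%). SOX2 at 0 h lay in 55.1% and 54.4% of falling and in 1.35% and 2.03% of rising regions, compared with 28.8% and 27.4% of all kept regions. After centring, NANOG was in 51.9% and 57% of the falling and in 0.519% and 0.865% of the rising regions. The contrast was present in each of 5 bins of the mean fold over all 4 lists. NANOG replicate 1 lay in 24.2% to 43.9% of falling and in 0% to 2.86% of rising regions. The rising regions in a bin numbered 14 to 44. Such bins do not hold 4 h strength equal. The median 4 h fold was 14.5 and 17.1 for falling and 5.45 and 7.19 for rising regions. Across kept regions, NANOG replicate 1 lay in 2.66% of the weakest and 24.1% of the strongest bin of 4 h fold. Whether the contrast holds at like 4 h fold was not tested.

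Rising regions were instead rich in GATA words. A word lay in 82.4% of rising and 58.7% of falling regions, and 3 or more words in 38.5% and 6.56%. Leaving out windows with tandem GATA copies gave 32.6% and 4.37%. AP-1 words went the other way, with 1.35% of rising and 16.9% of falling regions. A GATA6 2 h peak lay in 100% and 99.7% of falling but in 75% and 50.7% of rising regions. Falling regions also had the higher 4 h fold, and the 2 h shares were not compared at like 4 h fold. Across kept regions, a 2 h peak lay in 78.0% and 60.5% of the weakest and 99.9% and 99.4% of the strongest bin of 4 h fold. A 48 h peak lay in 11.8% and 14.6% of falling and 37.2% and 43.9% of rising regions. GATA4 at 24 h lay in 18.5% and 12.4% of falling and 37.8% and 28.4% of rising regions. SOX17, in contrast, lay in 43.7% and 53.0% of falling and 29.1% and 36.5% of rising regions. These shares were not compared at like 4 h fold either. Across kept regions, SOX17 lay in 30.0% and 38.6% of the weakest and 48.9% and 57.1% of the strongest bin of 4 h fold.

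The largest falls among kept regions within 50 kb of a TSS were near Noct, Lemd2, Cntf, Nkx6-3, Zfp454, Klf2, Hipk2 and Ptger2. The region 8.14 kb upstream of Noct, which encodes the circadian-controlled phosphatase nocturnin, had a fold of 23.4 and 27.1 at 4 h and 3.72 and 5.51 at 8 h. Its log2 difference was -2.47 ± 0.34 (SE, n = 2 lists per time, limma adjusted p = 5.38e-09). At 2 h it had been higher still, at 47.7 and 42.1, and both NANOG and both SOX2 0 h lists had a peak in it. The Klf2 region lies in an intron of Eps15l1, 35.1 kb downstream of the TSS of Klf2, which encodes a factor of naive pluripotency. It had a fold of 14.0 and 17.8 at 4 h and 6.32 and 2.51 at 8 h (log2 difference -1.98 ± 0.36, limma adjusted p = 1.73e-05). Neither NANOG nor SOX2 had a 0 h peak there.

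The region near Cntf, a cytokine of the family that signals through gp130, had a fold of 21.0 and 23.9 at 4 h and 6.42 and 4.11 at 8 h. In an intron of Hipk2, a kinase of homeodomain proteins, it went from 25.0 and 26.9 to 7.86 and 5.58. In an intron of Ptger2, a prostaglandin E2 receptor, the fold dropped from 22.8 and 36.9 to 9.89 and 5.61. The rule asked for time points that do not overlap. In 7 of the 8 regions, all but the one near the homeobox gene Nkx6-3, both 2 h values also lay above both 4 h values. Of the 8 regions 5, near Noct, Cntf, Nkx6-3, Zfp454 and Ptger2, carried NANOG and SOX2 in all 0 h lists, and none of the 8 carried a GATA4 24 h peak.

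The largest rises were near Mapkapk3, Pmch, Rnf186, Foxq1, Tent5a, Tmem108, Creg1 and Reep3. The region in an intron of Mapkapk3, a kinase downstream of p38, had a fold of 2.83 and 3.58 at 4 h and 8.73 and 10.9 at 8 h (log2 difference 1.62 ± 0.37, limma adjusted p = 0.000898). The region nearest to the TSS of Pmch, a neuropeptide precursor gene, lies in an intron of Parpbp and went from 3.96 and 6.10 to 13.9 and 15.8. The region 24.7 kb upstream of Foxq1, a forkhead factor of the PrE list, went from 4.95 and 6.64 to 16.6 and 16.9 (log2 difference 1.55 ± 0.35, limma adjusted p = 0.000785).

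The Foxq1 region had been at 5.71 and 4.30 at 2 h and stood at 12.3 and 17.2 in the 48 h lists, and it carried GATA4 and SOX17 peaks in all 24 h lists. The window upstream of Rnf186, a ubiquitin ligase gene, went from 7.05 and 5.70 to 17.9 and 19.5. None of the 8 rising regions had a NANOG or SOX2 0 h peak in any list. The regions near Pmch and Creg1 had no GATA6 peak in either 2 h list, and the other rising regions had 2 h folds of at most 7.58.

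**Figure D5:**
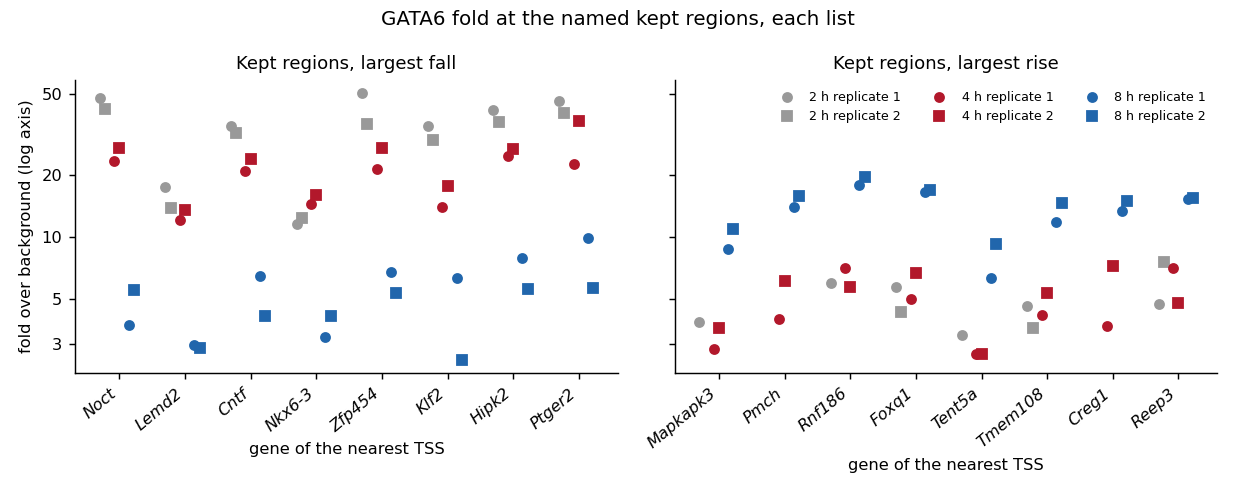
Fold over background (y axis, log scale) in each list at 2 h, 4 h and 8 h for the 8 kept regions with the largest fall (left) and the 8 with the largest rise (right), named by nearest gene (x axis). A missing point means that the list has no peak there. The 4 h and 8 h points of a region do not overlap, and the falling regions are mostly highest at 2 h.

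The strongest lost regions had folds well above the typical lost region. The Plch1 intron, in the gene of a phospholipase C, had a fold of 14.1 and 20.0 at 4 h, after 31.2 and 26.5 at 2 h. An intron of Gsdmc2, a gasdermin gene, had 14.5 and 18.5, and a region 31.7 kb upstream of Sp8, a zinc finger factor of limb and brain development, 14.5 and 18.1. The others were near Atp5s, Dact1, Ufl1, Sox21 and Gucy1a2, with a fold of 11 to 14.7 in replicate 1 and 15.1 to 19.5 in replicate 2. All 8 had a peak in both 2 h lists, and the regions near Plch1, Ufl1, Sox21 and Gucy1a2 had NANOG and SOX2 peaks in all 0 h lists. None had a GATA4 24 h peak.

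The strongest gained region lay 45.1 kb upstream of Arntl, which encodes the clock factor BMAL1, with a fold of 10.1 and 11.7 at 8 h. A region in an intron of Golm1, a Golgi membrane protein gene, had 7.86 and 12.3. Gained regions near E130308A19Rik, Car4, Nfil3, Bri3 and Enox2 had folds of 6.11 to 11.3 in replicate 1 and 8.16 to 10.4 in replicate 2. The windows of these 7 regions held at least 1 GATA word each, up to 3 in the one near E130308A19Rik.

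Of the 5 strongest kept regions 4 fell, and all 5 had a larger negative difference than the median kept region. The Cd59a intron, in a gene for an inhibitor of complement, had a fold of 98.2 and 128 at 4 h and of 68.5 and 87.7 at 8 h. Its log2 difference of -0.53 ± 0.23 did not pass the test (limma adjusted p = 0.110). The region near Uaca had 104 and 114 at 4 h and 48.9 and 56.3 at 8 h, and it fell (log2 difference -1.06 ± 0.24, limma adjusted p = 0.000985). The other strong regions were near Lpcat3, Sppl2a and Dnmt3a, a de novo DNA methyltransferase gene, with folds of 81.9 to 128 at 4 h and of 51.7 to 67.5 at 8 h. These 3 also fell, but of the 5 strongest only the Uaca region was lower after centring (limma adjusted p = 0.00723).

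Regions were then assigned to the nearest protein-coding TSS within 50 kb and read by gene list. Across all genes 26.9% of 4 h regions were lost, 3.44% of 8 h regions were gained, and 11.4% of kept regions fell and 0.83% rose. Near 16 PrE transcription factor genes, 10 of 63 regions were lost (15.9%, 95% Wilson interval 8.86 to 26.8), 41 were kept and 2 gained. Of the kept regions 6 fell and 1 rose, and after centring 3 fell and 1 rose. With only regions within 5 kb of the TSS, the lost share was 9.29 percentage points above that of all genes in place of below it. That value rests on only a part of the 63 regions.

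Gata4, the GATA factor induced downstream of GATA6, had 7 bound regions and kept all. The strongest, in an intron, had a fold of 37.5 and 47.5 at 4 h and 35.4 and 36.5 at 8 h. Gata6 itself had 3 kept and 2 reduced regions. The kept one at its own promoter had 13.3 and 17.9 at 4 h and 12.8 and 10.9 at 8 h. None of the kept regions of Gata4 and Gata6 passed the test in either direction.

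Sox17 and Foxa2, which encode further endoderm factors, had 1 gained region each. The Sox17 one lies 40.3 kb upstream with a fold of 4.03 and 2.74 at 8 h, and it had 5.36 and 6.41 in the 48 h lists and a peak of GATA4 replicate 1. Klf6 lost 4 of 12 regions, the most of the list, and 2 of its 5 kept regions fell. One of them went from 38.8 and 45.0 at 4 h to 14.5 and 14.6 at 8 h (log2 difference -1.52 ± 0.29, limma adjusted p = 6.03e-05). Creb3l2 had the most kept regions (9 of 15). The single Foxa1 region fell from 16.3 and 19.5 to 7.86 and 5.64 (log2 difference -1.42 ± 0.34, limma adjusted p = 0.00172). Over the list, 14.6% of the kept regions fell (interval 6.88 to 28.4) and 2.44% rose (0.432 to 12.6, 1 region). Both intervals include or lie near the shares over all genes, 11.4% and 0.83%.

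Sox7 lost 1 of 3 regions, Hhex 1 of 3 and Gsc 2 of 5. Cited1 kept its single region, and no region was bound near Sox18, Hnf4a or Rhox5. Near receptor and endocytosis genes of PrE, 6 of 45 regions were lost (13.3%, interval 6.26 to 26.2). Pdgfra, the receptor used to mark PrE, kept 6 of 7. Cd38 and Epha2 lost 2 each, and Lrp2, which encodes the endocytic receptor megalin, had 1 gained region. Basement membrane genes lost 13 of 64 (20.3%), and Lamc1, a laminin chain, had both the most kept (14) and the most lost (4) regions. A list of visceral endoderm genes, most but not all of serum proteins, had only 11 regions bound at 4 h, of which 2 were lost. Of its 14 regions at 8 h 3 were gained (21.4%, interval 7.57 to 47.6), near Apoa1, Amot and Cer1.

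Near 18 pluripotency genes 33 of 132 regions were lost (25.0%, interval 18.4 to 33.0), close to the share over all genes. Of the 132 regions 77 were kept, of which 9 fell (11.7%, beside 11.4% over all genes) and 0 rose. After centring 1 fell and 1 rose. Among the 85 regions bound at 8 h 3 were gained, with 1 each near Zfp42 and Tet2. Tbx3 lost the most (7 of 17). Esrrb and Klf5 had the most kept regions, 15 of 23 and 15 of 20, with 4 and 3 lost. Klf2 lost 2 of 7 and 2 of its 3 kept regions fell, 1 of them also after centring. Sox2 lost 2 of 4.

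At the Nanog locus, 1 of 5 regions was lost, 2 were reduced and 2 kept. The kept region 4.77 kb upstream, where NANOG and SOX2 have peaks at 0 h, had a fold of 14.5 and 21.2 at 4 h and 8.27 and 12.0 at 8 h. Its log2 difference of -0.81 ± 0.33 did not pass the test (limma adjusted p = 0.0797). Pou5f1, which encodes OCT4, kept 6 of 7 regions, and 1 of them fell. The latter lies in an intron of the gene and went from 7.40 and 14.5 to 4.76 and 4.25 (log2 difference -1.20 ± 0.37, limma adjusted p = 0.0163), and it no longer passed after centring (limma adjusted p = 0.130).

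Lost regions of the remaining pluripotency genes numbered 2 of 6 for Prdm14, 2 of 6 for Sall4 and 2 of 4 for Nr5a2. Klf4, Tfcp2l1, Zfp42, Utf1, Dppa3, Nr0b1 and Tet2 lost 1 region each, of 2 to 6.

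Signalling genes were read in the same way. Feedback genes of FGF and ERK signalling lost 18 of 66 regions (27.3%), Spry1, Spry4 and Dusp6 3 each. Etv5 kept the most (10), and 6 of the 40 kept regions of the list fell, 2 of them also after centring. WNT target genes lost 14 of 42 (33.3%, interval 21.0 to 48.5), 5 of them near Tcf7l2, which also had 7 kept regions and 1 gained. BMP target genes lost 11 of 42 (26.2%), 4 near Smad7, while Id3 kept all 7, of which 2 fell before centring and 0 after it. Epi signalling genes lost 7 of 32 (21.9%), of which Fgf4 and Il6st lost 2 each, and Il6st, the gene of gp130, kept 6. Trophectoderm genes lost 10 of 40 (25.0%), 5 of them near Tead4, while Elf5 had the most kept regions (6). Chromatin modifier genes lost 9 of 37 (24.3%), 4 near Jarid2, with 9 kept regions near Kdm6b and 1 gained near Suz12. Of 7 regions near neural and other somatic genes 5 were lost, near Pax6, Sox1, Pax5, Myod1 and Mesp1.

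The study's own networks of PrE and Epi genes, taken from embryo single-cell data, gave larger numbers. Near PrE network genes 286 of 1303 regions were lost (21.9%, interval 19.8 to 24.3) and near Epi network genes 239 of 841 (28.4%, interval 25.5 to 31.6). Of 795 kept PrE regions 72 fell and 11 rose, and of 433 kept Epi regions 72 fell and 1 rose. The falling shares were 9.06% (interval 7.25 to 11.3) and 16.6% (13.4 to 20.4), beside the 11.4% over all genes. After centring they were 2.39% and 3.23%, with 2.48% over all genes, and the rising shares were 2.77% and 0.462%, with 2.82% over all genes.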

How the data were processed

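GATA6 occupancy was measured by CUT&RUN in induced KH2 ES cells. The authors aligned reads to mm10 with Bowtie2, removed blacklisted reads with SAMtools, used Picard and kept duplicates. They called narrow peaks per library with MACS2 on short fragments, against a control library with a rabbit anti-rabbit antibody. The deposited lists hold a fold enrichment at each summit (a linear ratio) and a −log10 p-value and −log10 q-value per peak, and no counts.

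Peaks on 21 nuclear chromosomes of the 4 lists were merged at an overlap of 1 bp or where they touched. Time points came from the list names, because these and the sample records disagree. The summit pileup and background were recovered from the fold and p-value (tolerance 0.01%). Distances ran from region centres to GENCODE vM21 protein-coding TSSs, and shares carry 95% Wilson intervals. Kept regions were tested with limma 3.58.1 in R 4.3.3 (log2 of the highest fold per list, trended variance, no pseudocount, Benjamini-Hochberg threshold 0.05), which was also tested on simulated data. No p was computed over regions otherwise. Replicate numbers were not used to pair the lists, and the labels do not say whether they do. Replicate deviations had a correlation of -0.00942 across kept regions, a measure that cannot see an offset shared by all regions. Replicate 2 had the higher median log2 fold at 4 h (3.39 against 3.12) and at 8 h (2.95 against 2.82).

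Named regions are the 8 with the largest fall and the 8 with the largest rise past the threshold without overlap, the 8 lost and the 8 gained with the highest fold, and the 5 strongest kept, each within 50 kb of a TSS. For gene lists, the genes with the most lost, kept or gained regions were named, and the PrE and pluripotency factors. Some items that this rule names are not reported here. The members and lists were chosen with earlier results of these data known. Expression samples of the series were not used here.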

Additional observations from a re-analysis of the deposited data

How the results depend on the processing

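With the top 10000 peaks of every list, 1133 regions were lost, 5814 kept and 1.04 lost per gained. At equal list length 2911 were lost and 2226 gained (1.31), and 89 kept regions rose. A −log10 q of at least 5 left 6054 lost regions, and matching summits within 200 bp gave 1226 gained (7.06 lost per gained). Time points from the sample records, which compare other lists, gave 1124 lost, 2746 kept and 29341 gained (0.0383), with 164 falls and 1286 rises. Leaving out 1 list gave 11996 to 25528 lost, 19244 to 22384 kept and 1225 to 3194 gained regions, 3.76 to 20.8 lost per gained, 224 to 3224 falls and 4 to 189 rises. A lone list was assumed to vary like the other time point. Median-centring gave 547 falls and 578 rises. With the replicate number as a block, 3447 regions fell and 241 rose, although the labels do not say whether the numbers pair the lists. The difference within 5 kb of a TSS, lost minus kept, was -1.22 percentage points with the top 10000 peaks and -0.64 at equal length, and 1.03 to 4.22 without 1 list. For the GATA word the difference of -21.9 points became -11.1 within 50 bp, -16.9 within 250 bp, -16.6 with the top 10000 peaks, -20.3 at equal length and -25.6 to -17.0 without 1 list. The median TSS distance, lost minus kept, turned to -402.5 bp with all annotated genes and ranged from -1847 bp (without 4 h replicate 1) to 1288 bp without 1 list, with -552.5 bp without 8 h replicate 2. Without 4 h replicate 1 or 2, the pooled difference became -4.66 and -4.75 points for NANOG 0 h replicate 1, -5.51 and -6.09 for replicate 2, -3.51 and -4.20 for SOX2 0 h replicate 1, and -4.10 and -4.82 for replicate 2, while without an 8 h list it stayed positive, reaching 1.07, 2.24, 6.24 and 5.69 points for these 4 lists. Near PrE factors the lost share exceeded that of all genes by 9.29 points within 5 kb, from only a part of their regions. The cause of these shifts was not tested. Lists without counts limit all of this to sites past the caller's threshold.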

Other observations

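The partly new regions, bound in both 8 h lists and 1 of the 2 4 h lists, lay between kept and gained regions at earlier times. Both GATA6 2 h lists had a peak in 32.2% of them, against 88.2% of kept and 8.96% of gained regions. Either list named 48 h had a peak in 15.7% of partly new, 23.6% of kept and 18% of gained regions. Their GATA word share was 77.6%, and 5.60% held at least 3 tandem copies of GATA.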
